A study of Homo sapiens with 12 samples.

Results

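The transcripts of 10 transcription factors that set B-cell and plasma cell identity, PAX5, EBF1, IRF4, IRF8, PRDM1, BCL6, POU2AF1, SPIB, BACH2 and SOX11, were followed in mantle cell lymphoma (MCL) cell lines treated with an iron-targeting drug and a BTK inhibitor. The genes were chosen by name, and all 10 were found among the 63677 Ensembl genes of the count table. All 10 passed the filter on low counts that left 18674 genes for testing. In JVM2, however, SOX11 had 0 reads in all 4 libraries, BCL6 had 0 to 3 and BACH2 had 4 to 11, so that these genes passed through the other lines.

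RNA-seq was available for 12 libraries from the established MCL lines JEKO1, JVM2 and MAVER1. Each line was kept untreated (control) or treated for 48 h with ironomycin, with ibrutinib, or with both. Ironomycin, a salinomycin derivative that holds iron in lysosomes, was given at 50 nM to JEKO1 and 250 nM to JVM2 and MAVER1, and ibrutinib, an inhibitor of the B-cell receptor kinase BTK, at 0.5 μM, 1.5 μM and 6.25 μM to JEKO1, JVM2 and MAVER1, so that dose and cell line cannot be told apart. JEKO1 and MAVER1 grew in 20% serum and JVM2 in 10%. There was 1 library per line and treatment, the lines served as the 3 replicates of a treatment, and no source states that separate cultures were used. Levels are given as CPM, the counts of a gene brought to a common library size with edgeR's TMM factors. Libraries held 35448523 to 38630809 reads, at which 3 reads, the limit a count of 0 allows, correspond to 0.0808 to 0.0856 CPM in JVM2. Such limits cover counting error only.

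Of 9 MCL and B-cell marker genes, 8 exceeded 1 CPM in JEKO1 and in MAVER1 and 7 did so in JVM2, where SOX11 was at 0. JVM2 also had only 1 to 2 CD5 reads per library, and CCND1 at 216 to 322 CPM against at least 2182 in the other lines. Its 7 markers included CCND2, which exceeded 1 CPM in JVM2 alone. The summed markers ranged from 1915 to 6451 CPM over the 12 libraries. Summed markers of T cells stayed at or under 9.17 CPM, of NK cells at or under 6.79, of myeloid cells at or under 20.1 and of stroma and epithelium at or under 56.9, the last in MAVER1 with both drugs.

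B-cell identity rests on a small network of factors that oppose each other. PAX5 and EBF1 commit cells to the B lineage, SPIB, IRF8 and the octamer coactivator POU2AF1 sustain the mature B-cell programme, and the repressors BCL6 and BACH2 hold cells in the germinal centre or memory state. High IRF4 and PRDM1 (Blimp-1) switch cells to antibody secretion, and PRDM1 represses PAX5, MYC and CIITA. SOX11 is a neural factor that normal B cells lack and most MCLs express.

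The promoters of 4 members whose transcripts moved with a drug are shown, 250 bases each before the transcription start, from RefSeq on GRCh38.p14, with CpG dinucleotides in capitals. Windows were found for 8 of the 10 genes, and those of SOX11 and POU2AF1 were not analysed here.
IRF4 promoter, chr6:391502-391751, plus strand: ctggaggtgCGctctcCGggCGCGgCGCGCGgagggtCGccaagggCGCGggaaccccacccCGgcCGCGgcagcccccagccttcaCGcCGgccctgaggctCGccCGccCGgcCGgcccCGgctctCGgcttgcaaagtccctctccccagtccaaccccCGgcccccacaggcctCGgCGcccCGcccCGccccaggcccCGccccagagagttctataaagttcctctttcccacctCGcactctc
PRDM1 promoter, chr6:106086086-106086335, plus strand: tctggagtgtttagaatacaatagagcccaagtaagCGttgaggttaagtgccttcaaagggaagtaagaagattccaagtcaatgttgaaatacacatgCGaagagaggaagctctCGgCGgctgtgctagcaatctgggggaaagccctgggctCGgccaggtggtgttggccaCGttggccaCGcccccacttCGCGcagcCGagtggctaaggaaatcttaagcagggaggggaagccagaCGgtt
IRF8 promoter, chr16:85902580-85902829, plus strand: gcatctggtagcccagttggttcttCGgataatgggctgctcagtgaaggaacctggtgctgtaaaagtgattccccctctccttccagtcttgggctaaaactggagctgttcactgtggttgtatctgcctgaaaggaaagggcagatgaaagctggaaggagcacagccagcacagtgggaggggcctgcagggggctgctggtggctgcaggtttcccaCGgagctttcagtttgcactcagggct
SPIB promoter, chr19:50418688-50418937, plus strand: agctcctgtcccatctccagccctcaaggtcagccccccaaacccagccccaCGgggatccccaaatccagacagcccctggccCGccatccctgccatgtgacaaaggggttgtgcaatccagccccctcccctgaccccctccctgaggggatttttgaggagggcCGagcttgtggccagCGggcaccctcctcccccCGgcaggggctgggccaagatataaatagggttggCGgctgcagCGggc
The windows differed in CpG content. IRF4 had 28 CpG and PRDM1 11, more than in 84.1% and 49.7% of all promoters of this length, whereas SPIB had 7 and IRF8 only 2 (41.1% and 14.7%). BACH2, with 40, was above 97.8%. On both strands, the 8 windows were searched for the octamer ATGCAAAT (in 1.63% of 35116 promoters), the ISRE core, GAAA and GAAA with any 2 bases between (3.02%), the EICE core, GGAA and GAAA with any 2 bases between (2.41%), the PU box GAGGAAGT (2.17%), the PRDM1 core GAAAGT (11.4%), the AP-1 site TGANTCA (6.57%), the UPRE core TGACGTGG (0.612%) and the NF-kB consensus (9.96%). SPIB held an NF-kB consensus match at 197 to 188 bases before the start, and EBF1 held an EICE core at 33 to 24 that overlapped a PRDM1 core at 27 to 22. No other match was found in these windows, which says only that these letters are not there.

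The 3 lines differed in which of the factors they expressed. Per kilobase of exon, JEKO1 had POU2AF1 (54.9 ± 10.9 CPM per kb, SD over 4 libraries), IRF8 (53.1 ± 17.7) and PAX5 (41.5 ± 9.23) at the top. JVM2 and MAVER1 were led by IRF4, at 228 ± 16.4 and 64.2 ± 18.0. In JEKO1 the first 7 factors down to BACH2 overlapped their neighbours in rank, and only the steps from BACH2 to EBF1 (7.28 ± 1.24) and from EBF1 to PRDM1 (0.513 ± 0.207) exceeded the range of the libraries. In JVM2 every step down to SPIB (1.45 ± 0.207) and on to BACH2 (0.0219) was clear of overlap. In MAVER1 the clear steps were IRF4 to POU2AF1 (39.5 ± 3.42), SPIB (32.1 ± 14.1) to PAX5 (18.8 ± 1.42) and BACH2 (7.67 ± 1.89) to PRDM1 (3.54 ± 1.64). These values average over treatments, so their SD holds the drug response too.

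**Figure D1:**
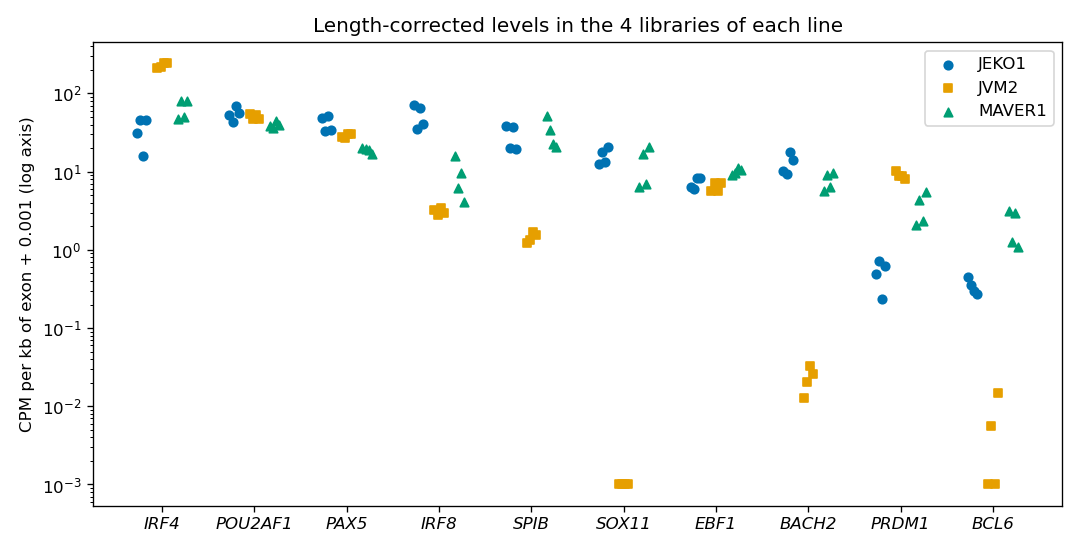
Level of the 10 transcription factors in CPM per kilobase of exon, plotted as the value + 0.001 on a log axis, with 1 point for each of the 4 libraries of a cell line. JVM2 stands apart through IRF4 at 228 on average and through BACH2, BCL6 and SOX11 at or near 0.

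PAX5, EBF1 and POU2AF1 were expressed in all 12 libraries. PAX5 was at 449, 305, 473 and 322 CPM in JEKO1 (control, ironomycin, ibrutinib, both, the order used throughout), at 260, 254, 284 and 284 in JVM2 and at 188, 181, 178 and 157 in MAVER1. The lines did not overlap: PAX5 was lower by 0.50 ± 0.12 (log2 fold change ± SE) in JVM2 than in JEKO1 and by 1.12 ± 0.12 in MAVER1 than in JEKO1 (edgeR quasi-likelihood test, adjusted p = 0.00223 and 7.65e-06). EBF1 ranged from 34.97 to 69.5 CPM, was 0.48 ± 0.11 higher in MAVER1 than in JEKO1 (adjusted p = 0.00272), and JVM2 did not differ from JEKO1 past the threshold (adjusted p = 0.18). POU2AF1 ranged from 269 to 512 CPM.

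IRF4 and PRDM1, the pair that drives plasma cell differentiation, were highest in JVM2. IRF4 was at 186, 272, 93.9 and 267 CPM in JEKO1, 1232, 1291, 1423 and 1424 in JVM2, and 281, 467, 293 and 474 in MAVER1. PRDM1 was at 3.12, 4.57, 1.51 and 3.93 CPM in JEKO1, 65.3, 55.9, 56.0 and 51.9 in JVM2, and 13.2, 27.4, 14.8 and 35.2 in MAVER1. For both genes JEKO1 had the lowest libraries and JVM2 the highest, with no overlap in either direction. IRF4 exceeded JEKO1 by 2.82 ± 0.23 in JVM2 and by 0.92 ± 0.22 in MAVER1 (adjusted p = 6.64e-07 and 0.00307), and PRDM1 by 4.23 ± 0.30 and 2.77 ± 0.29 (adjusted p = 1.93e-07 and 7.57e-06).

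IRF8 and SPIB were lowest in JVM2. IRF8, a partner of PU.1 in germinal centre B cells, was at 364, 182, 340 and 210 CPM in JEKO1, 16.6, 14.5, 17.7 and 15.5 in JVM2, and 82.6, 32.0, 49.6 and 21.1 in MAVER1. SPIB, an Ets factor related to PU.1, was at 165, 86.0, 160 and 82.4 CPM in JEKO1, 5.25, 5.68, 7.16 and 6.71 in JVM2, and 219, 145, 96.8 and 87.8 in MAVER1. JVM2 was below every library of the other lines for both genes, by 4.01 ± 0.24 (IRF8) and 4.23 ± 0.29 (SPIB) against JEKO1 (adjusted p = 5.60e-08 and 1.49e-07). SPIB in JEKO1 and MAVER1 overlapped and did not pass the test (0.16 ± 0.25, adjusted p = 0.605). SPIB shares 19.6% of its exon length with AC020909.1 on the same strand, and reads there could belong to either gene.

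BCL6, BACH2 and SOX11 were close to absent in JVM2. BCL6 was at 2.66, 2.08, 1.76 and 1.63 CPM in JEKO1 and 18.4, 7.54, 17.5 and 6.39 in MAVER1, with 0, 1, 0 and 3 reads in JVM2. BACH2 was at 101, 91.7, 175 and 139 CPM in JEKO1 and 56.0, 88.0, 62.7 and 93.5 in MAVER1, with 4, 7, 11 and 9 reads in JVM2. Over the pooled reads of a line, BCL6 was 73.2-fold (95% counting interval 28.3 to 270) higher in JEKO1 and 446-fold (174 to 1638) higher in MAVER1 than in JVM2. BACH2 was 588-fold (414 to 866) and 350-fold (247 to 516) higher. SOX11 was at 109, 154, 115 and 181 CPM in JEKO1 and at 55.4, 146, 60.3 and 181 in MAVER1. Its 0 reads in JVM2 placed it at least 1267-fold below the lowest JEKO1 library and at least 646-fold below the lowest MAVER1 library. Between the lines that expressed SOX11 the libraries overlapped, and the lower level in MAVER1 (0.49 ± 0.18 on the log2 scale, adjusted p = 0.0406) lost its call without the control or the ibrutinib library of either line (adjusted p = 0.153 to 0.165).

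By the test across the fit, 8 of the 10 factors differed between JVM2 and JEKO1, beside 78.3% of all genes tested. The counts were 9 for MAVER1 against JEKO1 (66.4% of all genes) and 10 for MAVER1 against JVM2 (71.2%), so that most genes of these lines differed. These tests use the spread between the 4 libraries of a line, which is not the spread between independent cultures.

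Other factors of B cells, a list of 39 of which 38 were tested, also had near-absent members in JVM2. There 13 were higher and 21 lower than in JEKO1 (38.6% and 39.8% of all genes), with a median log2 difference of -0.92 beside -0.03 over all genes. Among those with a mean log2 CPM of 1 or more, LEF1, BCL11A, ZEB2 and FOXP1 had the largest differences. BHLHE41, below that mean, had 0 to 1 reads in the JVM2 libraries against at least 970 in each JEKO1 library. LEF1, a Wnt-pathway factor, had 0 to 1 reads in the JVM2 libraries against at least 2212 in each JEKO1 library. FOXP1, a regulator of B-cell maturation, had 2 to 7 reads against at least 2871, and ZEB2 had 2 to 5 against at least 3586. BCL11A, needed for B-cell development, had 0 to 1 reads against at least 2368.

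The lists tied to PRDM1 and BCL6 by textbook knowledge, chosen with earlier results of these data known, were compared next. Of 21 plasma cell genes, 12 were higher and 3 lower in JVM2 than in JEKO1, and 15 were higher and 2 lower in MAVER1 (31.8% and 34.7% of all genes). The plasma cell surface proteoglycan SDC1 (CD138) was at 1.06 to 1.56 CPM in JEKO1, 81.7 to 124 in JVM2 and 36.2 to 58.5 in MAVER1. SLAMF7, a surface receptor of plasma cells, was at 199 to 228 CPM in JVM2 and at most 2.05 in the other lines, and ELL2, an elongation factor for secreted immunoglobulin, was at 160 to 182 CPM in JVM2 and 3.14 to 5.40 in JEKO1. Of 6 genes repressed by PRDM1, all 6 were lower in JVM2 than in JEKO1, as were 39.8% of all genes. They included MYC (-1.63 ± 0.09, adjusted p = 1.96e-08), ID3 (-1.41 ± 0.23, adjusted p = 0.000167), E2F1 (-1.23 ± 0.09, adjusted p = 2.51e-07) and CIITA (-0.37 ± 0.10, adjusted p = 0.00581). In MAVER1, 2 of the 6 were higher and 2 lower.

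Of 17 genes repressed by BCL6, 16 were tested, and 13 were higher and 2 lower in JVM2 than in JEKO1, where 38.6% and 39.8% of all genes were (median 1.77 beside -0.03 over all genes). CCND2, a D-type cyclin, was at 243 to 270 CPM in JVM2 and at most 0.757 in the other lines. CD80, a costimulatory ligand of T cells, exceeded JEKO1 by 5.41 ± 0.33 in JVM2 (adjusted p = 6.18e-08). In MAVER1, where BCL6 was highest, 9 of the 16 were higher and 3 lower than in JEKO1, beside 31.8% and 34.7% of all genes. BCL2 was among the higher (2.91 ± 0.13, adjusted p = 1.21e-08) and CCND2 among the lower, at 2 to 9 reads per library against 9 to 32 in JEKO1.

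Ironomycin was tested first with the lines as replicates. With edgeR 0 of the 10 factors passed against control, where 0.584% of all genes did. At an unadjusted p under 0.05 there were 2, IRF8 (-0.91 ± 0.26, adjusted p = 0.0894) and SOX11 (0.94 ± 0.25, adjusted p = 0.0979), beside 4198 of all genes. DESeq2 called 2, and its share over all genes is not given here. The plot by library shows IRF8 and PRDM1 moving in JEKO1 and MAVER1 with less movement in JVM2. SOX11 also moved in JEKO1 and MAVER1, but with 0 reads in JVM2 it could show no change there.

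**Figure D2:**
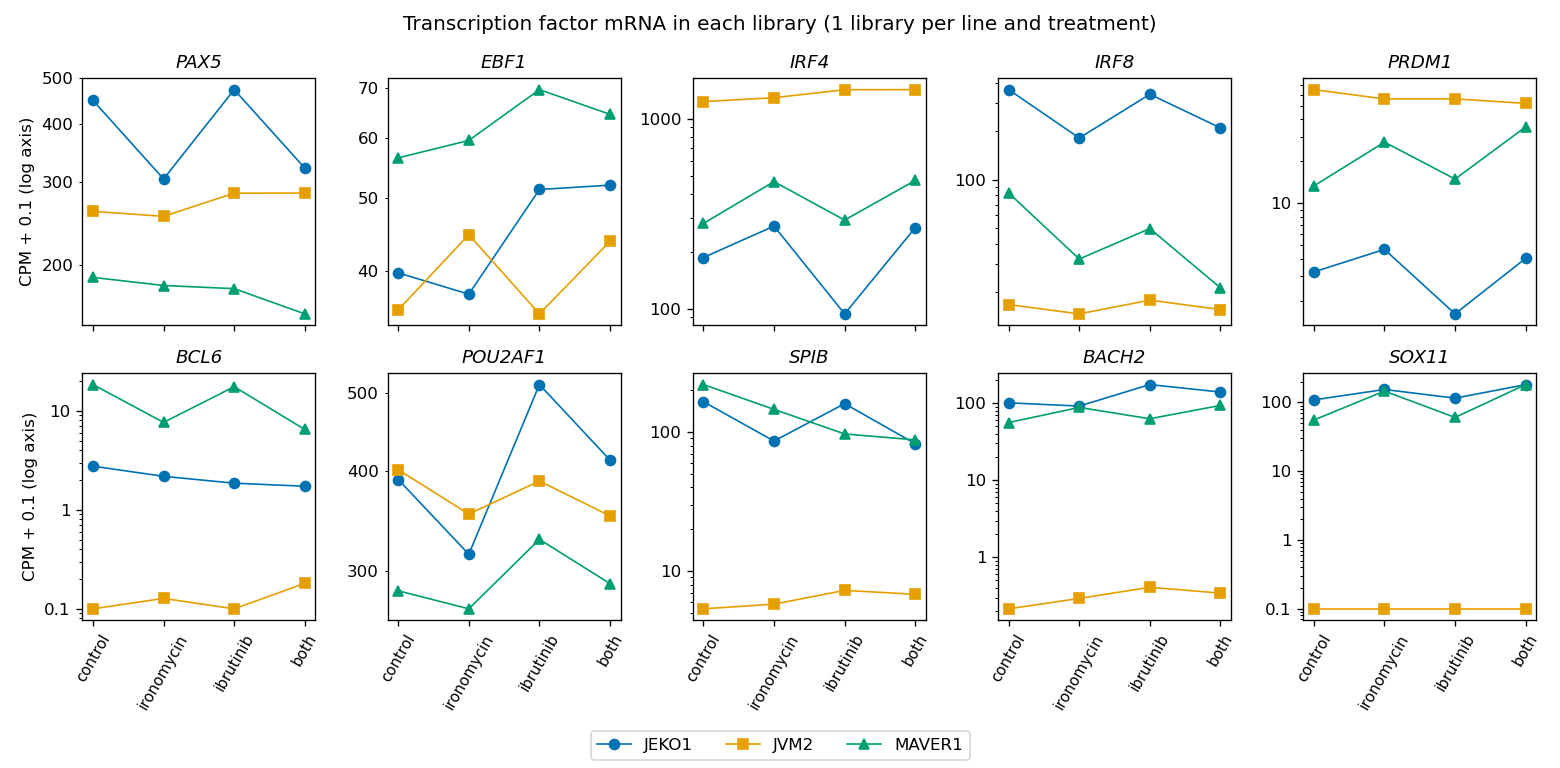
Level of each transcription factor, as CPM + 0.1 on a log axis, by treatment, with 1 point per library and 1 line per cell line. IRF4, PRDM1 and SOX11 were higher and IRF8 was lower with ironomycin in JEKO1 and MAVER1, while IRF8 in JVM2 stayed between 14.5 and 17.7 CPM.

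The effect of ironomycin was therefore estimated within each line, as the mean over the pair of libraries without ibrutinib and the pair with it. With 1 library per line and treatment, these tests do not measure the spread between independent cultures. The same holds for the ibrutinib tests within lines below. In JEKO1, 6 of the 10 factors passed, beside 33.3% of all genes. In MAVER1, 6 passed beside 32.3%, and in JVM2, 0 passed beside 2.27%, with 2 at an unadjusted p under 0.05 and 0 by DESeq2. A test of whether the effect differed between lines called 3, PRDM1, BCL6 and SOX11 (adjusted p = 0.023, 0.0228 and 0.00696), beside 7.97% of all genes. This fit gave ibrutinib 1 coefficient for all lines, although the ibrutinib effect on SPIB and IRF8 differed between lines (below). An ibrutinib coefficient for each line raised the counts for JVM2 and for the test between lines, as given at the end. JVM2 had 0 SOX11 reads and at most 3 BCL6 reads per library. The BCL6 test also used a JVM2 coefficient fitted to those reads, and between the lines that express BCL6 the effects did not differ past the threshold (MAVER1 minus JEKO1 -1.12 ± 0.26, adjusted p = 0.0553). This difference passed with library totals in place of TMM, with an ibrutinib coefficient for each line and with DESeq2 (adjusted p = 0.0466, 0.0237 and 0.0377), and in 0 of the 12 fits without 1 library. The BCL6 call was lost in 6 of the 12 fits that left out 1 library (adjusted p up to 0.0784).

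IRF4 and PRDM1 rose in JEKO1 and MAVER1. From the values above, IRF4 with ironomycin was 1.46-fold its control in JEKO1, 1.05-fold in JVM2 and 1.66-fold in MAVER1, and with both drugs it was 2.84-fold, 1.001-fold and 1.62-fold the level with ibrutinib alone. Fitted, IRF4 rose by 0.96 ± 0.22 in JEKO1 and by 0.71 ± 0.22 in MAVER1 (adjusted p = 0.00669 and 0.026). The JEKO1 value depended on single libraries: it was 0.47 (adjusted p = 0.0254) without the ibrutinib library and 1.56 without the control. The MAVER1 call was lost without any 1 of the 4 MAVER1 libraries (0.59 to 0.77, adjusted p = 0.0688 to 0.183). The difference of the IRF4 effect between lines did not pass (adjusted p = 0.141).

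PRDM1 rose by 1.16 ± 0.20 in MAVER1 (adjusted p = 0.00105), where both libraries with ironomycin, at 27.4 and 35.2 CPM, were above both without. In JEKO1 it rose by 0.88 ± 0.26 (adjusted p = 0.0208), from 124 to 191 reads without ibrutinib and from 60 to 166 with it. That call was lost without the ironomycin, the ibrutinib or the combination library (0.79, 0.42 and 0.94; adjusted p = 0.0812, 0.228 and 0.0705), and the value was 1.49 without the control. In JVM2, where PRDM1 was highest, its value was -0.17 ± 0.18 (adjusted p = 0.668). The effect in MAVER1 exceeded that in JVM2 by 1.33 ± 0.27 (adjusted p = 0.0158, with 6.44% of all genes called in this comparison), a call lost in 5 of the 12 fits that left out a library of any line. The test over the 3 lines lost PRDM1 in 6 of those 12 fits.

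IRF8 fell in JEKO1 by 0.84 ± 0.19 and in MAVER1 by 1.31 ± 0.20 (adjusted p = 0.00636 and 0.000606). Both calls were kept in all 12 fits that left out 1 library. In each of these lines, both libraries with ironomycin were lower than both without. In JVM2, where all 4 libraries held 529 to 633 IRF8 reads, the value was -0.19 ± 0.21 (adjusted p = 0.662). The fall in MAVER1 was larger than the value in JVM2 by 1.11 ± 0.29 (adjusted p = 0.0419), which was lost in 5 of 12 fits, and the test over all 3 lines did not pass (adjusted p = 0.0718). In these bulk libraries, fewer cells of a type and less RNA per cell cannot be told apart.

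SOX11 rose with ironomycin in the lines that expressed it. Its level was 1.42-fold the control in JEKO1 and 2.63-fold in MAVER1, and in each line both libraries with ironomycin were above both without. The fitted rise was 0.58 ± 0.09 in JEKO1 and 1.49 ± 0.09 in MAVER1 (adjusted p = 0.00131 and 1.12e-05), and the rise in MAVER1 was greater by 0.92 ± 0.12 (adjusted p = 0.00668, with 2.34% of all genes called). These calls, and that of the test between lines, were kept in all 12 fits that left out 1 library. The ironomycin dose was 250 nM in MAVER1 and 50 nM in JEKO1. With ironomycin the lines met at a similar level, 154 and 146 CPM, and at 181 CPM each with both drugs.

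BCL6 and BACH2 changed in MAVER1. BCL6 fell by 1.37 ± 0.17 (adjusted p = 0.000247), from 664 and 648 reads without ironomycin to 281 and 242 with it. In JEKO1, at 69 to 106 reads, its value was -0.25 ± 0.21 (adjusted p = 0.393). BACH2 rose in MAVER1 by 0.62 ± 0.15 (adjusted p = 0.00759), but not without the ironomycin or the ibrutinib library (0.38 and 0.43, adjusted p = 0.131 and 0.143), and its value in JEKO1 was -0.24 ± 0.15 (adjusted p = 0.226). The BACH2 effects of the lines did not differ past the threshold (adjusted p = 0.0559).

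PAX5 and SPIB fell in JEKO1. PAX5 fell by 0.56 ± 0.10 (adjusted p = 0.00167), to 0.680 of the control and to 0.680 of the ibrutinib library, and the call was kept in all 12 fits without 1 library. SPIB fell by 0.95 ± 0.27 (adjusted p = 0.0193), to 0.521 of the control, but not past the threshold without the ironomycin, the ibrutinib or the combination library (-0.80, -0.80 and -1.13; adjusted p = 0.0967, 0.124 and 0.0583) or with DESeq2 (adjusted p = 0.0664). The fall of SPIB in JEKO1 was alike in the pair without ibrutinib and the pair with it (-0.94 and -0.96 log2). POU2AF1 was at -0.31 ± 0.11 (adjusted p = 0.056). In MAVER1, SPIB was at -0.42 ± 0.27 (adjusted p = 0.271). EBF1 had its largest ironomycin value in JVM2, 0.33 ± 0.12, which did not pass (adjusted p = 0.178).

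**Figure D3:**
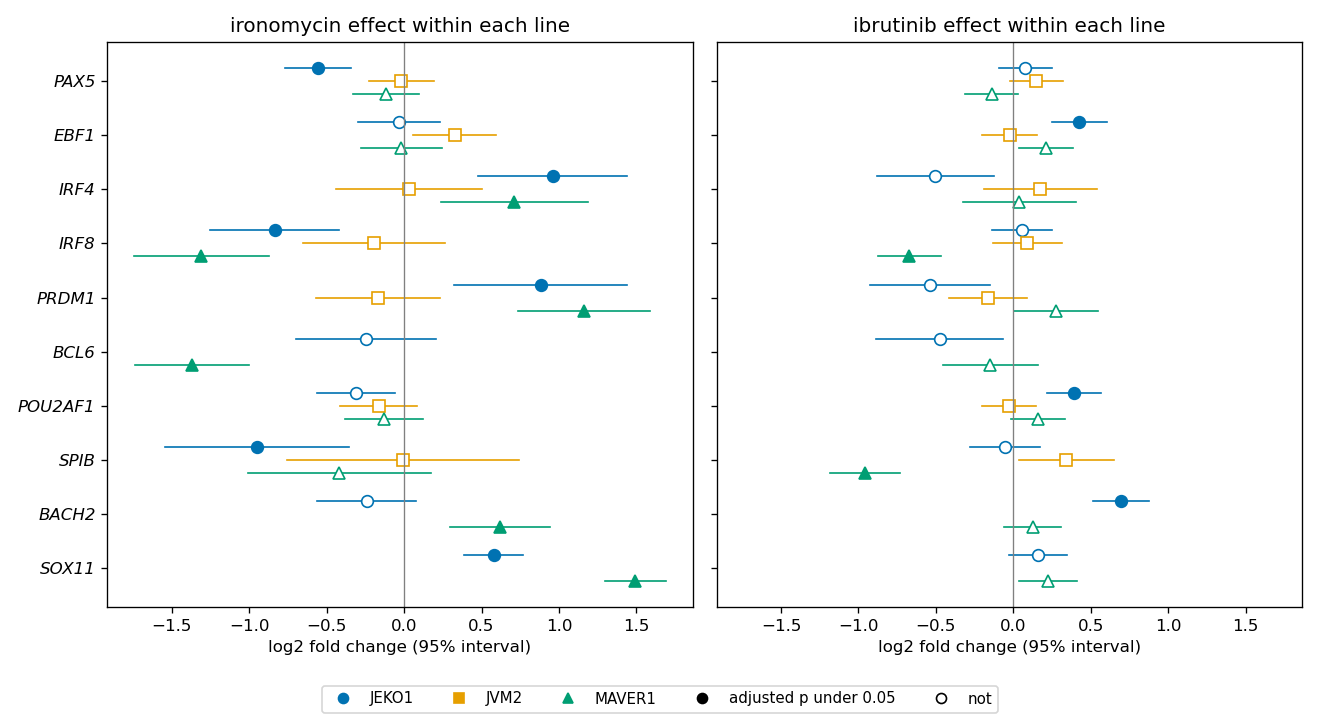
Log2 fold change of each transcription factor within each cell line, for ironomycin and for ibrutinib, with bars for the 95% confidence interval and filled points for an adjusted p under 0.05. Filled points for ironomycin number 6 in JEKO1, 0 in JVM2 and 6 in MAVER1, and values of BCL6, BACH2 and SOX11 in JVM2 are left out for their low counts.

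Part of the plasma cell list rose in JEKO1 and MAVER1. IRF4 and PRDM1 rose in the same lines, and a link between them and the list was not tested. The list also holds general genes of the endoplasmic reticulum, such as XBP1, ERN1, DERL3 and HSP90B1, which are counted with the rest. With ironomycin, 11 of 21 rose and 0 fell in JEKO1 (17.3% and 16.1% of all genes), and 11 rose and 1 fell in MAVER1 (16.6% and 15.7%), with medians of 0.69 and 0.47 beside 0.03 and 0.01 over all genes. In JVM2, 1 rose and 2 fell (1.4% and 0.868% of all genes, median -0.07). SDC1 (CD138) was not higher with ironomycin in JEKO1, at 1.38, 1.17, 1.56 and 1.06 CPM. It was at 124, 97.0, 99.1 and 81.7 CPM in JVM2 and 49.2, 58.5, 36.2 and 52.3 in MAVER1. Of the 21, 14 differed between lines by the test of the effect itself, where 7.97% of all genes did. The effect was lower in JVM2 than in JEKO1 for 11 of the 21 and higher for 0, where 3.32% of all genes differed and 2.15% were lower. The list was chosen with earlier results of these data known, so these shares are a description and not independent support.

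The largest rises included genes of endoplasmic reticulum stress that are not particular to plasma cells. ERN1, which encodes the endoplasmic reticulum stress sensor IRE1α, was at 29.2, 179, 27.7 and 287 CPM in JEKO1, 45.6, 66.1, 33.3 and 73.8 in JVM2, and 28.5, 153, 25.6 and 254 in MAVER1. It rose by 3.01 ± 0.25 in JEKO1 and 2.89 ± 0.25 in MAVER1 (adjusted p = 2.73e-05 and 2.40e-05). XBP1, the factor activated by IRE1α splicing, was at 36.8, 102, 41.8 and 125 CPM in JEKO1 and rose by 1.53 ± 0.10 there (adjusted p = 9.66e-06), while in JVM2 all 4 libraries lay between 239 and 289 CPM and in MAVER1 between 441 and 540. Its effect in JEKO1 exceeded that in MAVER1 and in JVM2 by 1.33 ± 0.14 and 1.72 ± 0.14 (adjusted p = 0.00189 and 0.000117). TNFRSF17 (BCMA), a survival receptor of plasma cells, rose by 2.29 ± 0.11 in JEKO1 and 1.40 ± 0.10 in MAVER1 and fell by 0.50 ± 0.10 in JVM2 (adjusted p = 1.33e-06, 1.02e-05 and 0.0263). DERL3, a component of endoplasmic reticulum degradation, rose in all 3 lines, by 2.07 ± 0.14, 0.63 ± 0.14 and 1.86 ± 0.14 in JEKO1, JVM2 and MAVER1 (adjusted p = 9.66e-06, 0.0441 and 1.09e-05). JCHAIN, the joining chain of secreted IgM and IgA, fell by 1.29 ± 0.12 in JVM2 (adjusted p = 0.000799).

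B-cell identity genes moved in both directions. Of 23, 3 rose and 8 fell in JEKO1 and 5 rose and 8 fell in MAVER1, with 0 called in JVM2 (medians -0.37, -0.27 and 0.12, beside 0.03, 0.01 and 0.00 over all genes). Over all genes, 17.3% rose and 16.1% fell in JEKO1, 16.6% and 15.7% in MAVER1, and 2.27% were called in JVM2. CD22, an inhibitory coreceptor of the B-cell receptor, fell by 1.06 ± 0.20 in JEKO1 and 1.34 ± 0.19 in MAVER1 (adjusted p = 0.00219 and 0.000405). RASGRP3, a Ras activator downstream of the receptor, rose by 1.18 ± 0.14 and 1.08 ± 0.12 (adjusted p = 0.000219 and 0.000107). In JEKO1 the tetraspanin CD37 and the adaptor BANK1 fell by 0.81 ± 0.10 and 1.04 ± 0.14 (adjusted p = 0.000295 and 0.000561). In MAVER1 the BAFF receptor TNFRSF13C rose by 1.34 ± 0.15 and CD72 by 1.09 ± 0.12 (adjusted p = 0.000128 and 8.20e-05).

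**Figure D4:**
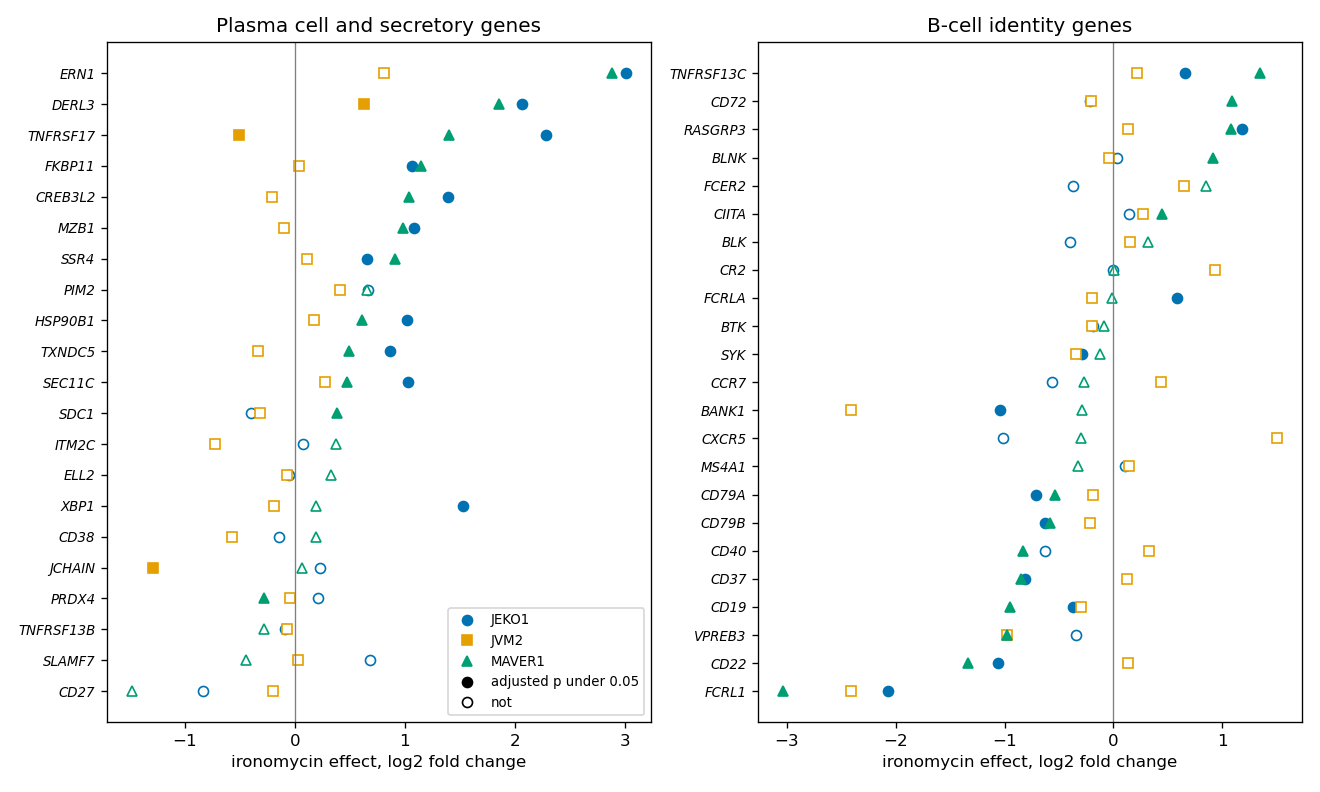
Log2 fold change with ironomycin of each gene of the plasma cell list and the B-cell identity list within each cell line, with 1 point per gene and filled points for an adjusted p under 0.05. Plasma cell genes centre at 0.69 in JEKO1, -0.07 in JVM2 and 0.47 in MAVER1, and the far open points in JVM2 are genes with few reads there.

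Among the 38 other transcription factors tested, 5 rose and 9 fell in JEKO1, 5 rose and 6 fell in MAVER1, and 0 were called in JVM2. The shares called, 36.8% and 28.9% in JEKO1 and MAVER1, were near those of all genes (33.3% and 32.3%). XBP1 stands in this list and in the plasma cell list. ID3, an inhibitor of E proteins, fell by 1.20 ± 0.16 in JEKO1 and 1.60 ± 0.16 in MAVER1 (adjusted p = 0.000436 and 6.13e-05). KLF2, a quiescence and homing factor, fell by 1.49 ± 0.22 and the interferon regulatory factor IRF1 rose by 0.80 ± 0.13 in JEKO1 (adjusted p = 0.000744 and 0.00131). MYB, a proto-oncogene of haematopoietic progenitors, rose by 1.26 ± 0.11 in MAVER1, where ID2, another inhibitor of E proteins, fell by 1.07 ± 0.15 and the homeobox factor HHEX by 0.76 ± 0.12 (adjusted p = 3.29e-05, 0.000411 and 0.000848).

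The lists tied to PRDM1 and BCL6 did not move as blocks. Of the 6 genes repressed by PRDM1, 2 fell in JEKO1, ID3 and E2F1 (-0.35 ± 0.09, adjusted p = 0.0146), and in MAVER1 ID3 fell while CIITA, the activator of MHC class II genes, rose by 0.45 ± 0.12 (adjusted p = 0.0134). Of the 16 genes repressed by BCL6, 3 rose and 4 fell in JEKO1 and 2 rose and 3 fell in MAVER1, where BCL6 itself fell, with medians of -0.04 and -0.05 beside 0.03 and 0.01 over all genes. Beside these counts of both lists, 17.3% of all genes rose and 16.1% fell in JEKO1, and 16.6% and 15.7% in MAVER1. CDKN1A, a cell cycle inhibitor, rose by 1.10 ± 0.18 and 1.03 ± 0.17 (adjusted p = 0.00111 and 0.00104), and BCL2, an inhibitor of apoptosis, by 0.67 ± 0.12 and 0.99 ± 0.12 (adjusted p = 0.00167 and 0.000135).

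Fewer of the factors were called with ibrutinib than with ironomycin, again in JEKO1 and MAVER1. With the lines as replicates 0 of 10 passed with edgeR, beside 0% of all genes, with 1 factor and 680 genes at an unadjusted p under 0.05 and 0 factors by DESeq2. Within lines, 3 factors passed in JEKO1 (5.7% of all genes), 0 in JVM2 (0.155%, with 1 at an unadjusted p under 0.05 and 0 by DESeq2) and 2 in MAVER1 (0.53%). The ibrutinib dose differed between all 3 lines. All 5 within-line calls were lost when the ironomycin effect was given 1 coefficient for all lines (adjusted p = 0.202 to 1), with changes of nearly the same size, such as 0.71 for BACH2 in JEKO1 and -0.95 for SPIB in MAVER1.

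In JEKO1, at 0.5 μM, the rises were in BACH2, EBF1 and POU2AF1. BACH2 was at 175 CPM with ibrutinib and 139 with both drugs, above the 101 and 91.7 without, and rose by 0.70 ± 0.08 (adjusted p = 0.000776), a call kept in all 12 fits without 1 library. EBF1 rose by 0.42 ± 0.08 (adjusted p = 0.0105) and lost its call without the ironomycin or the combination library of JEKO1 (adjusted p = 0.116 and 0.11). POU2AF1 rose by 0.39 ± 0.08 (adjusted p = 0.0149) and lost its call without any 1 library of JVM2 (adjusted p = 0.0795 to 0.0898). For none of these 3 did the ibrutinib effect differ between lines past the threshold (adjusted p = 0.0932, 0.227 and 0.264).

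In JEKO1 given ibrutinib alone, IRF4 and PRDM1 had their lowest values of the 12 libraries, 93.9 and 1.51 CPM, which were 0.505 and 0.484 of the control. With ironomycin added they were at 267 and 3.93 CPM, close to the 272 and 4.57 CPM with ironomycin alone. The fitted ibrutinib values, which average over these pairs, were -0.50 ± 0.17 and -0.54 ± 0.18 and did not pass (adjusted p = 0.116 and 0.107). A departure from additivity within JEKO1 was not tested. Across the 3 lines, a test of whether the combined change differed from the single changes added up called 0 of 10 factors with edgeR (0% of all genes), with 0 at an unadjusted p under 0.05 beside 367 of all genes, and 0 by DESeq2.

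In MAVER1, at 6.25 μM, SPIB and IRF8 fell. SPIB was at 96.8 CPM with ibrutinib against 219 in the control, and at 87.8 with both drugs against 145 with ironomycin. Its fitted fall was 0.96 ± 0.10 (adjusted p = 0.00235), kept in all 12 fits without 1 library. IRF8 fell by 0.67 ± 0.09 (adjusted p = 0.00935), a call lost without any 1 of the MAVER1 libraries (-0.61 to -0.74, adjusted p = 0.119 to 0.163). The ibrutinib effect differed between lines for SPIB (adjusted p = 0.00949) and IRF8 (adjusted p = 0.0273), beside 0.948% of all genes. SPIB was lower in its response in MAVER1 than in JEKO1 by 0.90 ± 0.14 and than in JVM2 by 1.30 ± 0.17 (adjusted p = 0.0319 and 0.0308, with 0.353% and 0.0589% of all genes called). These SPIB calls were kept in 4 and 6 of the 12 fits without 1 library. The call over the 3 lines was kept for SPIB in 8 of the 12 fits without 1 library and for IRF8 in 4. In JVM2, SPIB was at 0.34 ± 0.14 (adjusted p = 0.529).

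Among the other transcription factors, ibrutinib lowered RELB and NFKB2 in JEKO1. Of 38, 5 rose and 7 fell there (2.34% and 3.36% of all genes), and 0 were called in JVM2 or MAVER1. RELB and NFKB2, of the alternative NF-κB pathway, fell by 1.09 ± 0.25 and 1.02 ± 0.18 (adjusted p = 0.0312 and 0.00841), from 109 to 29.5 CPM and from 141 to 48.2 CPM with ibrutinib alone. The pair with ironomycin showed smaller falls, from 95.6 to 75.5 CPM and from 117 to 83.2 CPM. MEF2C, a factor downstream of the B-cell receptor, fell by 0.88 ± 0.12 and IKZF1 (Ikaros) by 0.57 ± 0.12 (adjusted p = 0.00151 and 0.0225). Of the 16 genes tested in the BCL6 list, 0 rose and 2 fell in JEKO1. CD69, an early activation antigen in that list, fell by 1.75 ± 0.32 (adjusted p = 0.00949). Of the 23 B-cell identity genes, 2 rose and 5 fell in JEKO1. In JVM2 1 fell and in MAVER1 2 fell, with 0 rising, where 0.155% and 0.53% of all genes were called. CD72 fell in all 3 lines, by 0.48 ± 0.08, 0.77 ± 0.12 and 0.88 ± 0.08 in JEKO1, JVM2 and MAVER1 (adjusted p = 0.00374, 0.0464 and 0.000502). FCER2 (CD23), the low-affinity IgE receptor, fell by 1.34 ± 0.34 in JEKO1 and 1.35 ± 0.24 in MAVER1 (adjusted p = 0.046 and 0.0366). Its counts there were low, at 11 to 36 reads per library in JEKO1 and 23 to 97 in MAVER1. In JVM2, where it was at 48.8, 65.8, 41.0 and 72.5 CPM, it was not called. Of the 21 plasma cell genes, 1 rose and 3 fell in JEKO1, where 2.34% and 3.36% of all genes did. The 1 that rose was CD27, a memory B-cell receptor, by 1.23 ± 0.12 (adjusted p = 0.000323).

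With both drugs, 2 of the 10 factors passed against control with the lines as replicates, beside 28.2% of all genes. IRF8 fell by 0.97 ± 0.26 and SOX11 rose by 1.22 ± 0.26 (adjusted p = 0.0193 and 0.0122). Both calls were lost without JEKO1 (-1.07 and 1.71, adjusted p = 0.131 and 0.0664) and without MAVER1 (-0.47 and 0.72, adjusted p = 0.2 and 0.114), each of which left only 1 line with SOX11 reads. With no term for the cell line 0 factors were called. Against ibrutinib alone, SOX11 was the 1 factor called (1.12 ± 0.25, adjusted p = 0.0195, beside 23.3% of all genes), and it too was lost without JEKO1 or MAVER1 (adjusted p = 0.0906 and 0.153). Against ironomycin alone 0 were called with edgeR (0% of all genes), with 0 at an unadjusted p under 0.05 beside 1970 of all genes, and 0 by DESeq2. These comparisons share libraries, and their values are not independent of each other.

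Over the 12 libraries, after the mean of each cell line was taken out, some of the factors ran alongside or against each other. IRF4 and PRDM1 were correlated at r = 0.924 and PRDM1 and SOX11 at 0.815, while IRF8 ran against SOX11 (-0.915) and PRDM1 (-0.831). EBF1 and BACH2 followed no other factor closely. The strongest r of EBF1 was 0.495, with POU2AF1, and that of BACH2 was 0.468, with EBF1. In the JVM2 libraries BACH2 had 4 to 11 reads and BCL6 had 0 to 3. Counting error there enters all correlations of these 2 genes, also those with their nearest genes below. The SD of BACH2 in log2 CPM was largest in JVM2 (0.473, against 0.427 in JEKO1 and 0.362 in MAVER1). Among 11384 genes, the course most like that of SOX11 was that of AFF4 (r = 0.993), followed by ANKRD50 and ST3GAL5 (both 0.989). For PRDM1 the nearest were NBR1 (0.978), SEC61B and FYCO1 (both 0.948). For IRF4 they were IFIH1 (0.973), SLC16A6 (0.970) and TOX2 (0.969), and for IRF8 BCL7C (0.979), SNAP47 (0.975) and THOC6 (0.969). PAX5 was nearest to LIG1 (0.957) and POU2AF1 to FOXO1 (0.948). The other nearest genes were LRRC51 for EBF1 (0.922), TRAM2-AS1 for BCL6 (0.952), PPIAP29 for SPIB (0.908) and C1orf174 for BACH2 (0.913). These correlations describe 12 libraries that share lines and treatments, and the closest of many genes is always close.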

How the data were processed

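Polyadenylated RNA of the 12 samples was sequenced in paired-end mode on DNBSEQ with a strand-specific kit. Per the labels and the values, the table deposited by the authors holds whole-number read counts for each Ensembl gene, not normalized. The submitters' processing notes name STAR, DESeq2 and GRCh37. The counting tool and its use of strand are not given in the sources used here, so reads of overlapping or antisense genes cannot be told apart. Of 63677 genes, 52181 were given a symbol.

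Testing used edgeR 4.0.16 under R 4.3.3 (TMM, filterByExpr with a minimum count of 10, quasi-likelihood F-test), with Benjamini-Hochberg adjustment over 18674 genes and calls at an adjusted p under 0.05. One fit had treatment and cell line (6 coefficients). Others had ironomycin within each line and ibrutinib (7), or both drugs within each line (9). The cell line is the replicate block: libraries of a line correlated at 0.926 to 0.976 in their deviations from the treatment means (18 pairs), and libraries of different lines at -0.705 to -0.127 (48). Log2 CPM used a prior count of 2. The SE of a log2 fold change was derived from the test, as its absolute value divided by the square root of F. Confidence intervals used this SE with a t quantile. The fits were tested on simulated counts.

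Alternatives were RLE factors, library totals, no filter, a log2 fold change of at least 1, DESeq2 1.42.0, no line term, other coefficients, fewer libraries and leaving out each line or library. The pairwise differences between lines were added after seeing the data. The factors and gene lists were chosen with earlier results of these data known. Named from each list were at most the 4 called genes with the largest change and a mean log2 CPM of 1 or more, and for each factor up to 3 genes of the most similar course. List genes with under 10 reads in every library of a line are given as reads or CPM. Some genes that this rule names are not reported here. Exon lengths and overlaps came from GENCODE, promoters from RefSeq (GRCh38.p14). No column was left unused (0). Figures were drawn with matplotlib 3.10.9 in Python 3.11.15.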

Additional observations from a re-analysis of the deposited data

Results flagged for a closer look

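For 5 results the effect of a drug differed between cell lines by a test of the difference itself. For ironomycin these were PRDM1 (adjusted p = 0.023), BCL6 (0.0228) and SOX11 (0.00696), by edgeR's quasi-likelihood F-test on 2 coefficients. PRDM1 rose in JEKO1 and MAVER1 and had a value of -0.17 ± 0.18 in JVM2, BCL6 fell in MAVER1 and had -0.25 ± 0.21 in JEKO1, and SOX11 rose more in MAVER1 than in JEKO1. JVM2 held 0 SOX11 reads and at most 3 BCL6 reads per library. The BCL6 test includes a JVM2 coefficient fitted to those few reads, and the difference between MAVER1 and JEKO1 alone did not pass (-1.12 ± 0.26, adjusted p = 0.0553). For ibrutinib the genes were IRF8 (adjusted p = 0.0273) and SPIB (0.00949), which fell in MAVER1 and were called in no other line. Doses differed between the lines, and dose and line cannot be told apart.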

How the results depend on the processing

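Where the cell line was not a replicate block, 0 of the 10 factors were called with both drugs against control and 0 against ibrutinib, and the same counts were reached with only the 6 libraries compared. Counts of called factors moved as follows. At a log2 fold change of at least 1, they were 1 with both drugs against control, 4 for MAVER1 against JEKO1 and 0 for ironomycin and ibrutinib within JEKO1 and ibrutinib within MAVER1. Library totals in place of TMM gave 4 with both drugs against control. No filter gave 2 for ironomycin against control, 4 with both drugs against control, 3 against ibrutinib, and 5 and 1 for the ironomycin and ibrutinib effects by line. With an ibrutinib coefficient for each line, 1 was called for ironomycin within JVM2 and 8 for its effect by line, and with 1 ironomycin coefficient for all lines 0 for ibrutinib within JEKO1, within MAVER1 and by line. DESeq2 gave 2 for ironomycin against control, 2 with both drugs against ibrutinib, and 6 and 4 for the effects by line. Shares of all genes called are not given for these alternatives or for those below. The counts alone therefore do not set the factors apart from other genes. The causes were not tested.

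Without 1 line, counts ran from 0 to 1 for ironomycin against control, 0 to 5 with both drugs against control (0 without JEKO1 or MAVER1, 5 without JVM2) and 0 to 4 against ibrutinib (likewise). Without 1 library, they ran from 8 to 9 for JVM2 and for MAVER1 against JEKO1, 10 to 10 for MAVER1 against JVM2, 4 to 8, 0 to 0 and 4 to 6 for ironomycin within JEKO1, JVM2 and MAVER1, 1 to 5 for its effect by line, 2 to 4, 0 to 0 and 1 to 2 for ibrutinib, and 0 to 5 by line. SPIB turned its direction: for MAVER1 against JEKO1 it was -0.027 with library totals, -0.12 with only control and ibrutinib libraries and -0.057 to 0.40 without 1 library, and for ironomycin within MAVER1 it was -0.91 to 0.18, the last without the MAVER1 control. The first was not called under any alternative run. The second was called without the MAVER1 ibrutinib library (-0.91, adjusted p = 0.0246) and with an ibrutinib coefficient for each line (-0.37, adjusted p = 0.0153). Library totals moved the median of all genes by 0.18 with both drugs against control (3934 genes higher and 1563 lower, beside 2655 and 2613 with TMM), 0.15 against ibrutinib, -0.25 and -0.21 for JVM2 and MAVER1 against JEKO1 and 0.17 for ironomycin within JEKO1. EBF1 and POU2AF1 were then called lower in JVM2 than in JEKO1 (-0.39 and -0.33). At 60 to 191 PRDM1 and 69 to 106 BCL6 reads per JEKO1 library, and with 1 library per line and treatment, smaller changes of these genes were not detectable.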
